A study of Mus musculus and Rattus norvegicus with 85 samples.

Results

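The 43 genes described here are interferon response genes, which cells switch on when they detect an interferon. They were followed in the lungs of female mice and rats that had inhaled chloroprene, a chlorinated diene used to make synthetic rubber. The genes were chosen by name, as a list of symbols, with earlier results of these data known. Every probe set annotated to 1 of these symbols alone was read from both array types. The mouse array (Affymetrix Mouse430_2) held 61 such probe sets for 39 of the 43 symbols, out of 34945 probe sets with 1 symbol. The rat array (Affymetrix Rat230_2) held 47 for 36 symbols, out of 20826. A gene was tested where a probe set exceeded a fixed signal on at least 5 arrays. That left 35 of the 43 genes among 13796 in the mouse and 34 among 11010 in the rat, with 28 tested in both species.

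The animals were 10 weeks old when exposure started and breathed chloroprene vapour in whole-body chambers for 6 hours a day on 5 days a week. Mice were of the strain B6C3F1/Crl. The 5-day groups received 0 ppm (air), 0.3 ppm, 2 ppm, 13 ppm or 90 ppm, and the 15-day groups the same without 0 ppm. Rats were of the strain F344/NCrl and received 5, 30, 90 or 200 ppm for 5 or for 15 exposure days. Each of these 17 groups held 5 animals, each on an array of its own, and the longer groups were killed 19 days after the start. Mice at 0 ppm for 15 days and rats at 0 ppm were not analysed here, so changes are against 0 ppm air for the 5-day mice, against 0.3 ppm for the 15-day mice and against 5 ppm for the rats. Total RNA came from the whole right lung, a mixture of many cell types. In such bulk tissue, fewer cells of a type and less RNA per cell cannot be told apart.

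Interferons bind receptors at the cell surface and activate STAT proteins. Type I interferons act mainly through a complex that contains STAT2 and IRF9 and binds a DNA element called the ISRE. Interferon-gamma acts mainly through a DNA element called GAS. In the lung these programmes are known from the defence against respiratory viruses and intracellular bacteria, and lymphocytes and natural killer cells are known sources of interferon-gamma.

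Promoters of 4 members that changed in the mouse are shown to place these elements. Gbp2 and Gbp3 are guanylate-binding proteins, Ifit1 blocks the translation of viral RNA and Psmb8 is a catalytic subunit of the immunoproteasome. Each sequence is the 250 bases before the annotated start of the gene, in the direction of the gene, from RefSeq on the mouse build GRCm38.p6. Capitals mark matches on either strand to GAAANN followed by GAAA, a core of the ISRE, or to TTCNNNGAA, a core of GAS. The Gbp2 window is chr3:142620413-142620662 on the plus strand, with an ISRE match 59 bases before the start. Gbp3 is at chr3:142559794-142560043 on the plus strand, with 2 overlapping ISRE matches 45 and 39 bases before its start. Ifit1 is at chr19:34640639-34640888 on the plus strand, with ISRE matches 104 and 85 bases before its start. Psmb8 is at chr17:34197945-34198194 on the plus strand, with a GAS match 97 bases before its start.
Gbp2: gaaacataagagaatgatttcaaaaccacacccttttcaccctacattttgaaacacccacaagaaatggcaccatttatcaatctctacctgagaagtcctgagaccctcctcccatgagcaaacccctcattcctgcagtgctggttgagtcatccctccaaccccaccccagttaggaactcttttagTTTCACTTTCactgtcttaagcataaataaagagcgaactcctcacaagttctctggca
Gbp3: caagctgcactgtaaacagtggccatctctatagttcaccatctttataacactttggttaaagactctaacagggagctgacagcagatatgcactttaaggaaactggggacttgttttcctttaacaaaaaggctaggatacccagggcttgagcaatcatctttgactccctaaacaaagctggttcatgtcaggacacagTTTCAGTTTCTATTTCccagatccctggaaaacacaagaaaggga
Ifit1: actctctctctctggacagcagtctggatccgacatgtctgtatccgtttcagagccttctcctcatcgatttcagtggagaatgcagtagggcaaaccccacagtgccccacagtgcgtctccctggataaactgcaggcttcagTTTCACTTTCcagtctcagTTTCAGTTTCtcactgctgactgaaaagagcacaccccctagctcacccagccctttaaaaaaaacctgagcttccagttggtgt
Psmb8: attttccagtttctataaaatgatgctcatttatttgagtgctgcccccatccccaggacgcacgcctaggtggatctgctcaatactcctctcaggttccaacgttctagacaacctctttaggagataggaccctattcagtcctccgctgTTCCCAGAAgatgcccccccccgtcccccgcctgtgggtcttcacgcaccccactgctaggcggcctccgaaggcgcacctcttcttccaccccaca

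Over windows of 300 bases, from 250 before to 50 after the start, 16 of 36 member windows (44.4%) held the ISRE core, against 3.44% of all 32851 windows in the table. The GAS core was in 10 of 36 (27.8%), against 8.3% of all windows. The windows covered 31 of the 43 members, and Gbp3 has a second one without a match. Among the members that fell in the mouse, 4 of 10 windows held the ISRE core and 2 of 10 the GAS core. A match describes the letters of a window and is not a site.

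All values below are log2 signals per probe set as deposited, so a difference of 1 is a doubling of signal. A change is the difference between 2 group means, given with its standard error. It is called a rise or a fall where limma's moderated test, with Benjamini-Hochberg adjustment across every tested gene of the species, gave an adjusted p under 0.05. Each group has n = 5. Nothing in the labels ties the animals to litters or cages. The X-inactivation transcript Xist was between 12.54 and 13.42 in 44 of the 45 mice and at 8.06 in mouse 120 (0.3 ppm, 5 days). In the rats Xist ranged from 8.19 to 12.65. No member was called at 0.3 ppm after 5 days with or without mouse 120. For 9 of the 15-day mice the labels give 2 durations, 15 days in the title and 5 days in another field, and these mice were grouped by their titles. Mice 178, 179 and 181 at 90 ppm and mice 126, 127 and 128 at 0.3 ppm are among them.

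In the mouse, 90 ppm chloroprene for 5 days was accompanied by lower levels of interferon response genes. Of the 35 tested members 12 fell and none rose, where 7.35% of all 13796 genes fell and 8.99% rose. The falls were in the guanylate-binding proteins Gbp2, Gbp3 and Gbp8, the immunity-related GTPase Iigp1, the antiviral effectors Xaf1, Oasl2, Ifit1, Parp9, Parp14 and Ifitm3, and the immunoproteasome subunits Psmb8 and Psmb10. The median change was -0.27 over the members and 0.01 over all genes, and 30 of the 35 lay below 0 (47.1% of all genes). With no filter on low signal the same 12 genes were called. A change of at least 1.5-fold was reached by 4 members, namely Gbp2, Gbp3, Gbp8 and Iigp1, against 2.16% of all genes. Without mouse 103 (0 ppm) or without mouse 168 (90 ppm) 7 members were called. With the RNA integrity number as covariate, in a fit that leaves out 3 of the 5 controls, Gbp2 alone kept its call. The changes stayed near their size there, for example -0.76 ± 0.26 for Gbp3 (adjusted p = 0.0791), -0.90 ± 0.30 for Gbp8 (adjusted p = 0.0748) and -0.48 ± 0.18 for Xaf1 (adjusted p = 0.106).

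The interferon-inducible GTPases, which attack the membranes around intracellular microbes, had the lowest median of the role groups at -0.72, and 4 of 6 fell. Gbp2 (probe set 1435906_x_at) read 10.88, 10.80, 10.81, 11.05 and 10.83 in the control mice 101 to 105. In mice 165 to 169 at 90 ppm it read 9.94, 10.58, 10.21, 9.99 and 10.20. Every exposed mouse lay below every control, and mouse 166 was the nearest to them. The fall was 0.69 on the log2 scale (change -0.69 ± 0.12, 1.61-fold, limma adjusted p = 4.47e-05). A second Gbp2 probe set changed by -0.58 and also passed. Members of this family share sequence, and the probe sets used for Gbp2, Gbp3 and Iigp1 carry suffixes that Affymetrix gives to sets able to bind related transcripts.

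Gbp3 (probe set 1418392_a_at) read 9.30, 9.57, 9.19, 9.35 and 9.25 in the controls and 7.72, 9.19, 8.89, 8.56 and 8.50 at 90 ppm. The groups met at 9.19, where mouse 166 was level with the lowest control, and mouse 165 was far below all others. The change was -0.76 ± 0.19 (adjusted p = 0.0032). Gbp8 (probe set 1418776_at) read 7.13, 7.68, 7.12, 7.16 and 6.85 in the controls and 5.46, 6.87, 6.51, 6.35 and 6.25 at 90 ppm. Only mouse 166 exceeded the lowest control, and the change was -0.90 ± 0.22 (adjusted p = 0.0036). The other 4 exposed mice lay below the filter signal of 6.672, so its size is uncertain. Iigp1, which coats the vacuoles of parasites, read 8.78, 9.41, 9.06, 8.71 and 9.18 in the controls and 7.27, 8.86, 7.97, 8.31 and 8.24 at 90 ppm. Here too mouse 166 alone reached into the control range, and the change was -0.90 ± 0.26 (adjusted p = 0.0125). The Iigp1 call was lost without mouse 165 and when the 0.3 ppm mice served as the reference. The remaining tested GTPases, Igtp (-0.27) and Irgm1 (-0.17), did not pass.

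**Figure D1:**
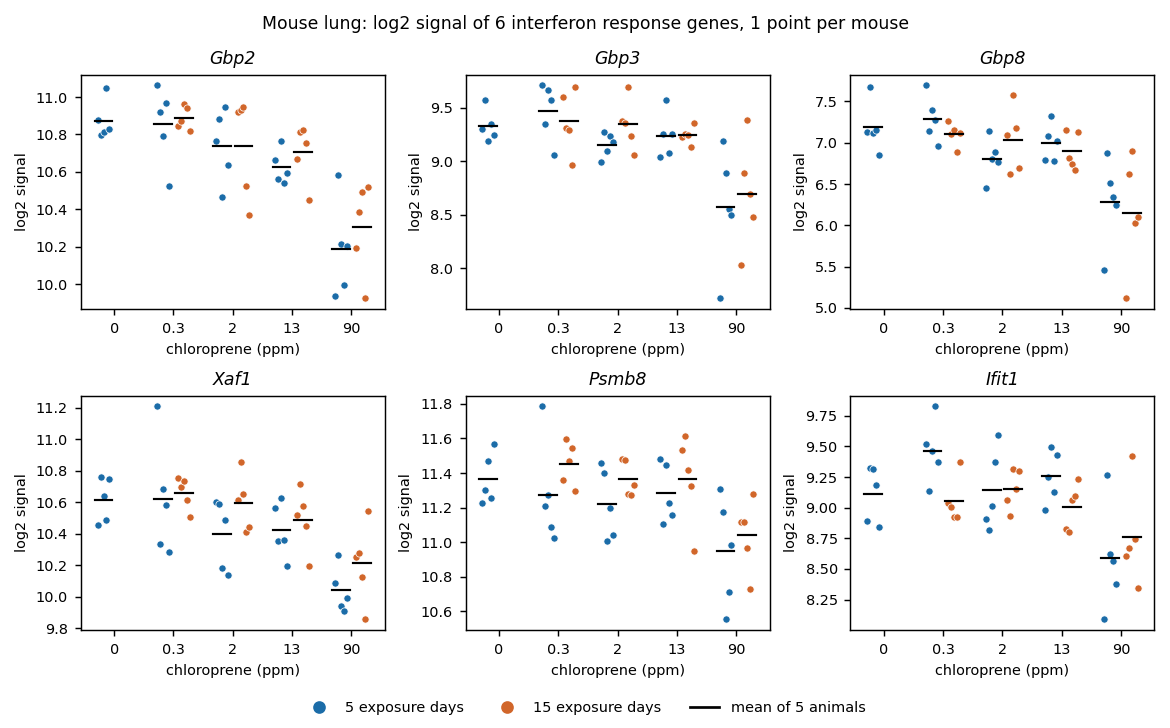
Log2 signal of Gbp2, Gbp3, Gbp8, Xaf1, Psmb8 and Ifit1 in mouse lung (vertical axes) against chloroprene concentration in ppm (horizontal axes, not to scale), 1 point per mouse, blue after 5 and orange after 15 exposure days, with a bar at the mean of 5 animals. The 90 ppm means are the lowest of each panel, and Gbp2 and Xaf1 after 5 days have no 90 ppm point inside the 0 ppm range.

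Among the antiviral effectors 6 of 13 fell. Xaf1, a pro-apoptotic partner of the inhibitor XIAP, read 10.45, 10.76, 10.64, 10.49 and 10.74 in the controls and 10.09, 10.27, 9.94, 9.91 and 9.99 at 90 ppm. The groups did not overlap, and the change was -0.58 ± 0.13 (adjusted p = 0.0014). Ifit1 read 8.89, 9.32, 9.31, 9.18 and 8.84 in the controls and 8.09, 9.27, 8.62, 8.57 and 8.38 at 90 ppm. Mouse 166 lay among the controls and the other 4 exposed mice below them. The change was -0.52 ± 0.17 (adjusted p = 0.029), and the call was lost without any 1 of the mice 102, 103, 104, 165, 168 or 169. Oasl2, a relative of the 2'-5' oligoadenylate synthetases, read 9.55, 9.97, 9.90, 9.71 and 9.64 in the controls and 9.21, 9.65, 9.08, 9.04 and 9.19 at 90 ppm. Again mouse 166 was inside the control range and the others below it. Its change was -0.52 ± 0.17 (adjusted p = 0.0243), a call lost without any 1 of the mice 102, 103, 167 or 168.

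Ifitm3, a membrane protein that blocks virus entry, read 13.89, 13.89, 13.97, 13.89 and 13.88 in the controls and 13.81, 13.76, 13.70, 13.59 and 13.70 at 90 ppm. The groups did not overlap although the change was small, at -0.19 ± 0.06 (adjusted p = 0.0124), and it was lost without mouse 168 and with 0.3 ppm as the reference. The mono-ADP-ribosyltransferase relatives Parp9 and Parp14 also fell, by changes of -0.32 ± 0.10 (adjusted p = 0.0225) and -0.38 ± 0.13 (adjusted p = 0.036). Parp9 lost its call without any 1 of mice 102, 103 or 165, and Parp14 without any 1 of mice 101, 102, 103, 165, 168 or 169. A second Parp14 probe set differed by -0.09 and did not pass. The members of the same role that did not pass included Ifit2 (-0.55 ± 0.21, adjusted p = 0.069), Bst2 (-0.29), Oas1a (-0.26), Ifit3 (0.05) and Rsad2 (-0.00).

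The immunoproteasome cuts proteins into peptides for MHC class I, and TAP carries them into the endoplasmic reticulum. Of these 5 members 2 fell. Psmb10 read 11.33, 11.27, 11.49, 11.37 and 11.39 in the controls and 11.30, 10.94, 10.79, 10.78 and 10.93 at 90 ppm. Mouse 165 was at the control level and the other 4 were below it, with a change of -0.42 ± 0.12 (adjusted p = 0.0132). Psmb8 read 11.23, 11.30, 11.47, 11.25 and 11.57 in the controls and 11.30, 11.17, 10.55, 10.71 and 10.99 at 90 ppm. Mouse 165 again lay among the controls. The Psmb8 change was -0.42 ± 0.13 (adjusted p = 0.0239), lost without any 1 of mice 103, 105, 167 or 168 and with 0.3 ppm as the reference. Psmb9 (-0.35), Tap2 (-0.23) and Tap1 (-0.13) did not pass.

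None of the 7 tested transcription factors and signal regulators passed, and neither did the 3 sensors of viral nucleic acid. Irf8, a factor of myeloid and B cells, read 10.38, 10.12, 10.11, 10.33 and 10.11 in the controls and 10.01, 9.92, 9.86, 9.57 and 9.83 at 90 ppm. Its groups did not overlap, but the change of -0.37 ± 0.20 had an adjusted p of 0.229. Altogether 4 members had no overlap between 90 and 0 ppm, all lower (Gbp2, Xaf1, Ifitm3 and Irf8), where 6.22% of all genes did. Irf1 (0.05), Irf3 (0.11) and the interferon feedback inhibitor Usp18 (0.02) were close to 0. The sensors Ifih1 (-0.36), Zbp1 (-0.37, adjusted p = 0.074) and Dhx58 (-0.19) were below 0.

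Animals of the 90 ppm group were not alike. The mean of the 35 members, each centred over all mouse arrays, was 0.05 in mouse 166 and between -0.29 and -0.21 in the other 4 mice. In the controls it lay between 0.04 and 0.18. Mouse 166 had the highest value of its group in 18 of the 35 members. At 0.3 ppm, mouse 117 stood at 0.51 and was the highest of its group in 31 members.

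With 1 probe set for each gene, the concentrations below 90 ppm gave no calls among the members after 5 days. In the fit of all 47 kept member probe sets 1 fell at 2 ppm. The share of all probe sets that fell there was not counted. At 13 ppm the median of the members was -0.10, and 0.13% of all genes fell and 1.17% rose. At 2 ppm it was -0.14, and 0.138% of all genes fell and 1.07% rose. At 0.3 ppm it was 0.05 and 0% of all genes were called. At an unadjusted p under 0.05, Gbp2 was lower at 13 ppm (4.49% of all genes), Iigp1 was lower at 2 ppm (2.99%) and Ifit1 was higher at 0.3 ppm (2.48%). The Gbp2 group means were 10.87, 10.85, 10.74, 10.63 and 10.19 from 0 to 90 ppm. At 13 ppm Gbp2 read 10.66, 10.56, 10.77, 10.54 and 10.59, all below the lowest control, with a change of -0.25 ± 0.12 (adjusted p = 0.402). Iigp1 at 2 ppm read 8.54, 8.71, 8.23, 7.85 and 7.96, at or below the lowest control, with a change of -0.77 ± 0.26 (adjusted p = 0.138). Non-overlapping lower values were found for 2 members at 13 ppm (1.24% of all genes) and for 2 at 2 ppm (1.33%). All comparisons of the 5-day mice share the 5 control mice.

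After 15 exposure days the mice at 90 ppm again had lower levels than those at 0.3 ppm. Of 35 members 7 fell and none rose, against 3.29% of all genes falling and 4.68% rising. They were Gbp2, Gbp3, Gbp8, Xaf1 and all 3 inducible subunits of the immunoproteasome, Psmb8, Psmb9 and Psmb10. The median change was -0.24 over the members and -0.01 over all genes, and 32 of 35 lay below 0 (54% of all genes). The falls reached 1.5-fold in 2 members, Gbp3 and Gbp8 (0.71% of all genes). The count was 4 without mouse 179 or mouse 125 and 3 without mouse 180 or mouse 126. It was also 4 (Gbp2, Gbp3, Gbp8 and Iigp1) without the mice whose duration field conflicts. That fit keeps only mice 177 and 180 against mice 125 and 129, and there Xaf1, Psmb8, Psmb9 and Psmb10 lost their calls. The count was 2 (Gbp2 and Gbp8) without the mice with a letter after their number.

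Gbp2 read 10.84, 10.87, 10.96, 10.94 and 10.82 in mice 125 to 129 at 0.3 ppm and 10.19, 10.39, 10.49, 9.92 and 10.52 in mice 177 to 181 at 90 ppm. The groups did not overlap. The change was -0.58 ± 0.12 (adjusted p = 0.00092). Gbp8 read 7.27, 7.11, 7.16, 6.89 and 7.12 at 0.3 ppm and 5.12, 6.62, 6.90, 6.03 and 6.10 at 90 ppm. Mouse 179 alone reached the lower end of the 0.3 ppm range, mouse 177 was the lowest, and the change was -0.96 ± 0.22 (adjusted p = 0.0044). Gbp3 read 9.60, 9.31, 9.29, 8.97 and 9.70 at 0.3 ppm and 8.03, 8.89, 9.39, 8.69 and 8.48 at 90 ppm. Mouse 179 lay inside the reference range and mouse 177 was again lowest. The Gbp3 change was -0.68 ± 0.19 (adjusted p = 0.0174), and its call was lost without any 1 of mice 177, 125 or 129.

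Psmb9 read 10.83, 11.00, 10.78, 10.94 and 10.82 at 0.3 ppm and 10.55, 10.34, 10.31, 10.18 and 10.58 at 90 ppm. All exposed mice were below all reference mice. The change was -0.48 ± 0.14 (adjusted p = 0.0301), lost without any 1 of mice 178, 179, 180, 126 or 128. Psmb8 read 11.36, 11.60, 11.47, 11.54 and 11.30 at 0.3 ppm and 11.12, 11.12, 10.96, 10.73 and 11.28 at 90 ppm. Its groups did not overlap either, and mouse 181 came closest. The change was -0.41 ± 0.13 (adjusted p = 0.0449), lost without any 1 of mice 178, 179, 180, 125, 126, 127 or 128. Psmb10 changed by -0.42 ± 0.12 (adjusted p = 0.0251), lost without any 1 of mice 179, 180, 126 or 128.

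Xaf1 read 10.75, 10.70, 10.74, 10.61 and 10.51 at 0.3 ppm and 10.25, 10.28, 10.13, 9.86 and 10.55 at 90 ppm. Mouse 181 was inside the reference range and the other 4 were below it. The change was -0.45 ± 0.13 (adjusted p = 0.0237), lost without any 1 of mice 179, 180, 125, 126 or 127. Non-overlapping lower values were found for 5 members (Gbp2, Psmb8, Psmb9, Irf9 and Ifitm3), against 2.1% of all genes. Irf9, the DNA-binding part of the type I complex, differed by -0.31 (adjusted p = 0.111), and Ifitm3 by -0.16 (adjusted p = 0.0747). Iigp1 (-0.56), Oasl2 (-0.41) and Ifit1 (-0.29) did not pass after 15 days. At 13 and 2 ppm no member was called against 0.3 ppm, with medians of -0.02 and 0.01. In these comparisons 0.00725% and 0% of all genes fell and 0.319% and 0.109% rose, and no member was past an unadjusted p of 0.05.

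Gbp2, Gbp3, Gbp8, Psmb8, Psmb10 and Xaf1 fell at both times, that is 6 of the 12 genes of day 5 and 6 of the 7 of day 15, with different reference groups. Whether the change from 0.3 to 90 ppm differed between the times was tested directly. No member passed, where 0% of all genes were called higher and 0.0435% lower after 15 days, and 1 member (Ifit1) was higher at an unadjusted p under 0.05 (2.95% of all genes). For Gbp2 this difference was 0.09 ± 0.17, for Gbp3 0.23 ± 0.26 and for Gbp8 0.05 ± 0.32. At 90 ppm itself, 15 against 5 days gave 0.12 ± 0.12 for Gbp2 and -0.14 ± 0.22 for Gbp8, neither of which passed. Among all genes 0.029% rose and 0.0942% fell in that comparison. These values set the size of difference that could be seen, and do not show that the times were alike.

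**Figure D2:**
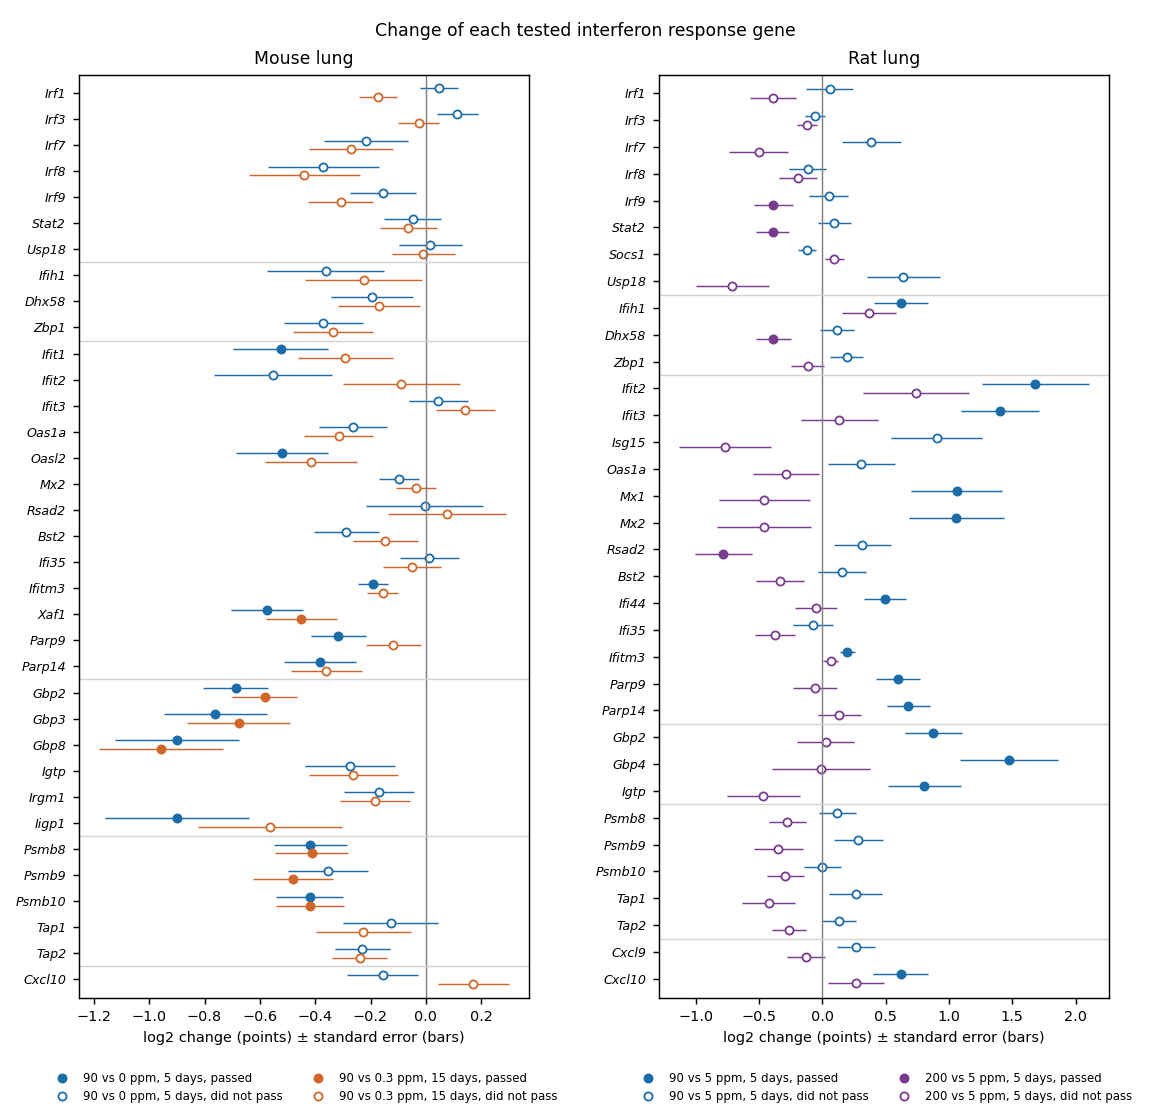
Log2 change of every tested member (points, horizontal axes) with its standard error (bars), in mouse lung at 90 ppm after 5 and 15 days (left) and in rat lung at 90 and 200 ppm after 5 days (right), with grey lines between the role groups and filled points for an adjusted p under 0.05. The mouse has 12 and 7 filled points, all below 0, and the rat has 13 filled points above 0 at 90 ppm and 4 below 0 at 200 ppm.

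Some other genes of the interferon pathway also fell in the mouse after 5 days at 90 ppm, where 7.35% of all genes fell. Of 38 tested genes in a list of further interferon-induced genes 8 fell and none rose, among them Nmi (-0.54 ± 0.08, adjusted p = 3.33e-06), Sp100 (-0.63), Gbp6 (-0.92), Trim30a (-0.52), Cd274 (-0.46) and Ifi47 (-0.53). Of 16 receptors and signal transducers 3 fell, Irf5 (-0.49), Ifngr2 (-0.40) and the phosphatase Ptpn6 (-0.38), and the receptors Ifnar1 (-0.14) and Ifngr1 (-0.19) did not pass. Of 11 nucleic acid sensors and adaptors 1 fell, the RIG-I gene Ddx58 (-0.40), a share near that of all genes. Of 11 genes of MHC class I and its loading 3 fell, including the transactivator Nlrc5 (-0.57 ± 0.18, adjusted p = 0.0204), while B2m (-0.10) did not pass. Of 11 MHC class II genes 7 fell, including H2-Ob (-1.45), H2-Aa (-0.34) and their transactivator Ciita (-0.36). After 15 days 5 of the 38 further genes fell (Cd274, Gbp6, Ifi27, Ifi47 and Parp12), against 3.29% of all genes. Of the other lists 0 of 16, 2 of 11, 0 of 11 and 3 of 11 fell, and none rose.

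Markers of several immune cell types were also lower in the mice at 90 ppm. After 5 days at 90 ppm 7 of 8 tested B cell markers fell, 5 of 8 T cell markers, 6 of 8 natural killer cell markers, 2 of 4 monocyte markers and 4 of 9 dendritic cell markers, against 7.35% of all genes. None of the neutrophil markers (7 tested) passed. The mean log2 signal of the B cell markers ran from 8.13 to 8.42 in the controls and from 7.07 to 7.53 at 90 ppm. For T cells the ranges were 8.04 to 8.15 and 7.30 to 7.75, and for natural killer cells 8.11 to 8.25 and 7.22 to 7.76. None of these 3 overlapped. Monocytes (10.31 to 10.40 and 9.58 to 10.02) and dendritic cells (8.45 to 8.57 and 8.07 to 8.18) did not overlap either. Alveolar macrophage means did overlap, from 10.41 to 10.61 in the controls and from 10.40 to 10.67 at 90 ppm. So did the means of the endothelial, epithelial and erythroid markers. At 2 ppm for 5 days, where no member was called, B cell means (7.27 to 7.84) and T cell means (7.62 to 8.02) also lay below every control. So did those of natural killer cells (7.38 to 7.98) and dendritic cells (8.26 to 8.42), while monocytes overlapped. At 13 ppm the B, T, natural killer and dendritic cell means overlapped with the controls. At 0.3 ppm for 5 days the means ran from 7.25 to 8.34 for B cells and from 7.60 to 8.45 for T cells. For natural killer cells they ran from 7.56 to 8.76 and for monocytes from 10.01 to 10.67. These ranges overlapped both with the controls and with 90 ppm. The dendritic cell means at 0.3 ppm (8.23 to 8.69) overlapped with the controls only. After 15 days no B or T cell marker fell, but 2 of 8 natural killer, 3 of 4 monocyte and 3 of 9 dendritic cell markers did, against 3.29% of all genes. The natural killer cell means then ran from 7.86 to 8.28 at 0.3 ppm and from 7.15 to 7.81 at 90 ppm. For monocytes the ranges were 10.06 to 10.46 and 9.56 to 10.01, and for dendritic cells 8.25 to 8.52 and 7.96 to 8.19, again without overlap. Mouse 117, high in 31 members, also had the highest natural killer cell mean of its group (8.76). The part of these cells in the changes of the members was not tested.

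In the rat, 90 ppm for 5 days was accompanied by higher levels of interferon response genes. Of 34 tested members 13 rose and none fell, where 4.13% of all 11010 genes rose and 19.5% fell. The rises were in Ifit2, Ifit3, Mx1, Mx2, Ifi44, Ifitm3, Parp9 and Parp14 among the effectors, in the GTPases Gbp2, Gbp4 and Igtp, in the sensor Ifih1 and in the chemokine Cxcl10. The median change was 0.30 over the members and -0.14 over all genes, and 29 of 34 lay above 0 (30.5% of all genes). With each array centred on all tested genes the members' median was 0.42, and 11 of the 13 kept their call (Mx2 and Ifih1 lost it). Centring changed the balance over all genes from 455 rises and 2143 falls to 367 and 395. A rise of at least 1.5-fold was reached by 11 members, against 2.29% of all genes. With no filter on low signal the same 13 genes were called. Cxcl10 had passed the filter on 6 arrays, of which 3 were in this group.

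The number of rises depended on single animals. Without rat 217 (5 ppm) 1 member was called, without rat 219, 250 or 251 there were 5, without rat 252 there were 6, without rat 221 there were 7 and without rat 253 there were 8. Fitted on the 5-day arrays alone 7 members rose, and none passed once the RNA integrity number was a covariate, a fit in which the changes stayed near their size and their errors grew. The difference was then 1.47 ± 0.40 for Ifit3, 1.48 ± 0.54 for Ifit2, 1.33 ± 0.49 for Gbp4 and 0.85 ± 0.28 for Gbp2, with adjusted p from 0.091 (Ifit3) to 0.221 (Ifih1) over the 13 members. All 10 rats compared have an integrity number. The 90 ppm rats had integrity numbers of 9.2 to 9.3, and the 5 ppm rats 7.3 to 8.5. Xist differed too, from 12.16 to 12.56 at 90 ppm and from 8.19 to 12.28 at 5 ppm, where rat 222 was the highest. The integrity numbers of these groups do not overlap, so RNA quality and concentration cannot be told apart here, with that covariate or without it. The part of RNA quality in these rises was not tested. Without rat 222, 10 members rose.

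Ifit2 and Ifit3 bind foreign RNA or partner proteins that do. Ifit2 (probe set 1384180_at) read 8.47, 8.22, 9.68, 8.57 and 9.12 in rats 217, 219, 220, 221 and 222 at 5 ppm. In rats 249 to 253 at 90 ppm it read 10.36, 10.67, 10.52, 10.53 and 10.39. The 90 ppm rats were close together and all above the 5 ppm rats. The change was 1.68 ± 0.42, which is 3.21-fold (adjusted p = 0.0140), and a second probe set changed by 1.89. Ifit3 (probe set 1376908_at) read 8.46, 7.75, 9.23, 8.08 and 8.45 at 5 ppm and 9.59, 9.99, 9.71, 9.82 and 9.86 at 90 ppm. Its groups did not overlap either. The Ifit3 change was 1.40 ± 0.30 (adjusted p = 0.0088), and its call held without any 1 of the 10 rats. The Ifit2 call was lost without rat 217.

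Mx1 and Mx2 encode dynamin-like GTPases that trap viral particles. Mx1 read 8.82, 8.16, 9.48, 8.14 and 7.88 at 5 ppm and 9.68, 9.48, 9.45, 9.71 and 9.46 at 90 ppm. Rat 220 of the 5 ppm group reached the lower 90 ppm values, and the change was 1.06 ± 0.36 (adjusted p = 0.0378). Mx2 read 8.08, 7.31, 8.62, 7.48 and 7.09 at 5 ppm and 8.65, 8.84, 8.76, 8.83 and 8.79 at 90 ppm. These groups did not overlap, but rat 220 came within a small step of the lowest exposed rat. The change was 1.06 ± 0.37 (adjusted p = 0.0421). Both calls were lost without any 1 of rats 217, 219, 221, 250, 251, 252 or 253, and that of Mx2 also without rat 222.

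Isg15, a ubiquitin-like protein that is attached to other proteins, did not pass. It read 11.23, 10.09, 11.40, 9.97 and 9.46 at 5 ppm and 11.45, 11.41, 11.40, 11.31 and 11.08 at 90 ppm. The 5 ppm rats were spread widely and rats 217 and 220 lay at the 90 ppm level. The Isg15 change was 0.90 ± 0.36 (adjusted p = 0.060). Its protease Usp18, which also damps receptor signalling, differed by 0.64 (adjusted p = 0.081) and did not pass.

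All 3 tested rat GTPases rose. Gbp4 read 5.30, 5.33, 6.72, 5.42 and 5.50 at 5 ppm and 7.28, 7.11, 6.94, 7.32 and 6.99 at 90 ppm. Rat 220 stood apart from its group, below all exposed rats. The change was 1.48 ± 0.39 (adjusted p = 0.0178), but the other 4 rats at 5 ppm lay below the filter signal of 6.651, so its size is uncertain. Gbp2 read 10.01, 10.02, 10.72, 9.95 and 9.81 at 5 ppm and 10.98, 11.07, 10.91, 11.02 and 10.90 at 90 ppm. The groups did not overlap, rat 220 was again the highest at 5 ppm, and the change was 0.87 ± 0.22 (adjusted p = 0.0164). Both calls were lost without rat 217. Igtp read 10.00, 9.18, 10.00, 9.08 and 8.90 at 5 ppm and 10.50, 10.41, 10.15, 10.28 and 9.83 at 90 ppm, with rats 217 and 220 above rat 253. Its change was 0.80 ± 0.29 (adjusted p = 0.0434), and the call was lost without any 1 of 9 of the 10 rats, all but rat 220.

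Parp14 read 9.41, 9.41, 9.82, 9.50 and 9.33 at 5 ppm and 10.29, 10.18, 10.30, 10.11 and 9.97 at 90 ppm. No 5 ppm rat reached the exposed group. The change was 0.68 ± 0.17 (adjusted p = 0.0140), lost without rat 217. Its partner Parp9 changed by 0.60 ± 0.17 (adjusted p = 0.0251), lost without any 1 of rats 217, 219, 250 or 251. Ifi44 changed by 0.50 ± 0.17 (adjusted p = 0.0364), and Ifitm3 by 0.20 ± 0.06 (adjusted p = 0.029). Ifi44 lost its call without any 1 of rats 217, 219, 221, 250, 251, 252 or 253, and Ifitm3 without any 1 of rats 217, 219, 250, 251 or 252.

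The sensor Ifih1, known as MDA5, read 6.29, 6.79, 7.20, 6.87 and 7.10 at 5 ppm and 7.17, 7.53, 7.71, 7.42 and 7.53 at 90 ppm. Rat 220 overlapped with the lowest exposed rat. The change was 0.62 ± 0.21 (adjusted p = 0.0394). Cxcl10, which attracts cells that carry the receptor CXCR3, read 6.33, 5.79, 6.56, 6.03 and 5.44 at 5 ppm and 7.10, 6.90, 6.74, 6.53 and 5.96 at 90 ppm. Rats 252 and 253 lay below rat 220 of the 5 ppm group, and the change was 0.62 ± 0.22 (adjusted p = 0.0428). All rats at 5 ppm and rats 252 and 253 lay below the filter signal of 6.651, so the size of the Cxcl10 change is uncertain. Ifih1 lost its call without any 1 of rats 217, 219, 221, 250, 251, 252 or 253. Cxcl10 lost it without any 1 of rats 217, 219, 221, 222, 249, 250, 251 or 252.

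None of the 5 rat members of the immunoproteasome and peptide transport passed at 90 ppm, with changes from -0.00 to 0.28. None of the 8 transcription factors and signal regulators passed either, among them Irf7 (0.38), Stat2 (0.09), Irf1 (0.06) and Irf9 (0.05). Non-overlapping higher values were found for 7 members (Gbp2, Gbp4, Ifit2, Ifit3, Mx2, Parp9 and Parp14), against 2.88% of all genes. The inhibitor Socs1 alone was lower without overlap, which 7.12% of all genes were, and its change did not pass. The spread within the 90 ppm group was small, with a median SD of 0.14 over the members against 0.35 at 5 ppm and 0.41 at 200 ppm.

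**Figure D3:**
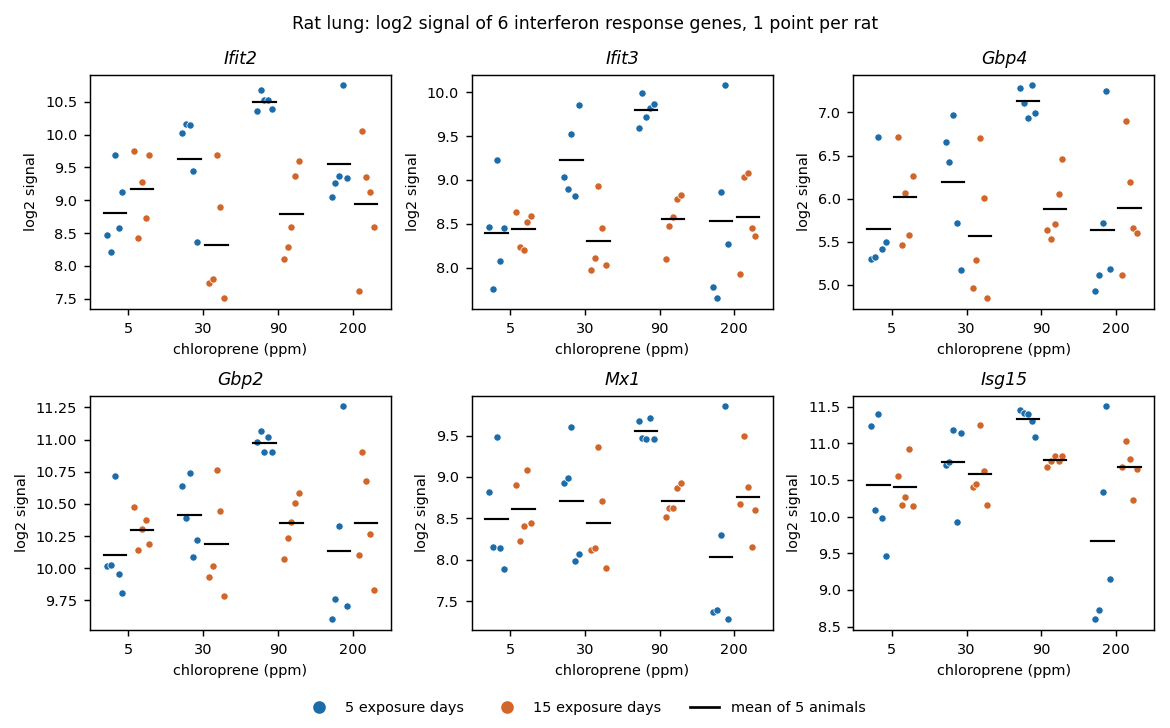
Log2 signal of Ifit2, Ifit3, Gbp4, Gbp2, Mx1 and Isg15 in rat lung (vertical axes) against chloroprene concentration in ppm (horizontal axes, not to scale), 1 point per rat, blue after 5 and orange after 15 exposure days, with a bar at the mean of 5 animals. The mean at 90 ppm after 5 days is the highest of each panel, and at 200 ppm after 5 days rat 268 (for Ifit3 at 10.08) lies above the other 4.

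Other pathway genes in the 90 ppm rats followed in part. Of 30 further interferon-induced genes 8 rose and 1 fell. Those that rose included the HERC family member Herc6 (2.14 ± 0.54, adjusted p = 0.0148), Irgm2 (0.64), Dtx3l (0.54), Sp100 (0.54) and Trim25 (0.35), and the chemokine Cxcl16 fell (-0.35). Of 15 receptors and signal transducers 4 fell, including Ptpn6 (-0.42) and the kinase Tyk2 (-0.33), and of 7 sensors and adaptors 2 fell, Mavs (-0.32) and Ticam1 (-0.29). Both shares are near the 19.5% of all genes that fell, and 4.13% rose. Of 11 MHC class I genes 1 fell, and of 10 MHC class II genes none passed. The tested markers of B cells (4), T cells (9) and natural killer cells (8) gave no call. Of the lists with calls, 2 of 3 erythroid, 1 of 3 monocyte and 1 of 7 alveolar macrophage markers fell. The erythroid means did not overlap, from 10.73 to 10.98 at 5 ppm and from 10.03 to 10.57 at 90 ppm, and the dendritic cell means met at their ends, from 7.99 to 8.17 and from 8.16 to 8.27. The part of these cells in the rises was not tested. The lymphocyte means overlapped, from 7.54 to 8.24 at 5 ppm and from 7.24 to 8.02 at 90 ppm for T cells and from 8.51 to 8.84 and 8.37 to 9.03 for natural killer cells.

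At 200 ppm after 5 days the rise was not seen. Of 34 members 4 fell and none rose, where 31.6% of all genes fell and 4.68% rose. The median change was -0.28 over the members and -0.14 over all genes. The members that fell were Rsad2 (viperin, which makes a chain-terminating nucleotide), the sensor Dhx58, and the STAT2 and IRF9 parts of the type I complex. With each array centred on all tested genes Rsad2 remained the only fall, and Ifitm3 and Socs1 rose. Centring changed the balance over all genes from 515 rises and 3477 falls to 940 and 1469. Without rat 268 the count was 15, without rat 222 it was 14, and without any 1 of rats 217, 265, 266 or 269 it was 1.

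Rsad2 read 10.06, 9.68, 10.29, 9.73 and 9.39 at 5 ppm and 8.55, 9.39, 9.16, 10.05 and 8.07 in rats 265 to 269 at 200 ppm. Rat 268 lay among the 5 ppm rats and the others at or below them. The change was -0.78 ± 0.23 (adjusted p = 0.0102), lost without rat 269. Stat2 read 10.02, 9.56, 9.91, 9.67 and 9.41 at 5 ppm and 8.91, 9.01, 9.54, 9.84 and 9.30 at 200 ppm. Rats 267 and 268 overlapped with the reference, and the change was -0.39 ± 0.13 (adjusted p = 0.0202). Irf9 changed by -0.39 ± 0.15 (adjusted p = 0.0474) and Dhx58 by -0.39 ± 0.14 (adjusted p = 0.0294). The Stat2, Irf9 and Dhx58 calls were each lost without rat 217, 265 or 266 and with the arrays centred.

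Rat 268 stood apart at 200 ppm. The centred mean of the 34 members was 0.48 in this rat and between -0.69 and -0.10 in the other 4, and it had the highest value of its group in 31 of 34 members. In Isg15 it read 11.50, and the others 8.60, 8.72, 10.34 and 9.15. At 90 ppm the 5 means lay between 0.19 and 0.46, at 5 ppm between -0.41 and 0.28. The integrity numbers at 200 ppm were 7.1 to 8.7 on the 4 arrays that have one, and rat 268 was at 7.4. The part of RNA quality in this spread was not tested.

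**Figure D4:**
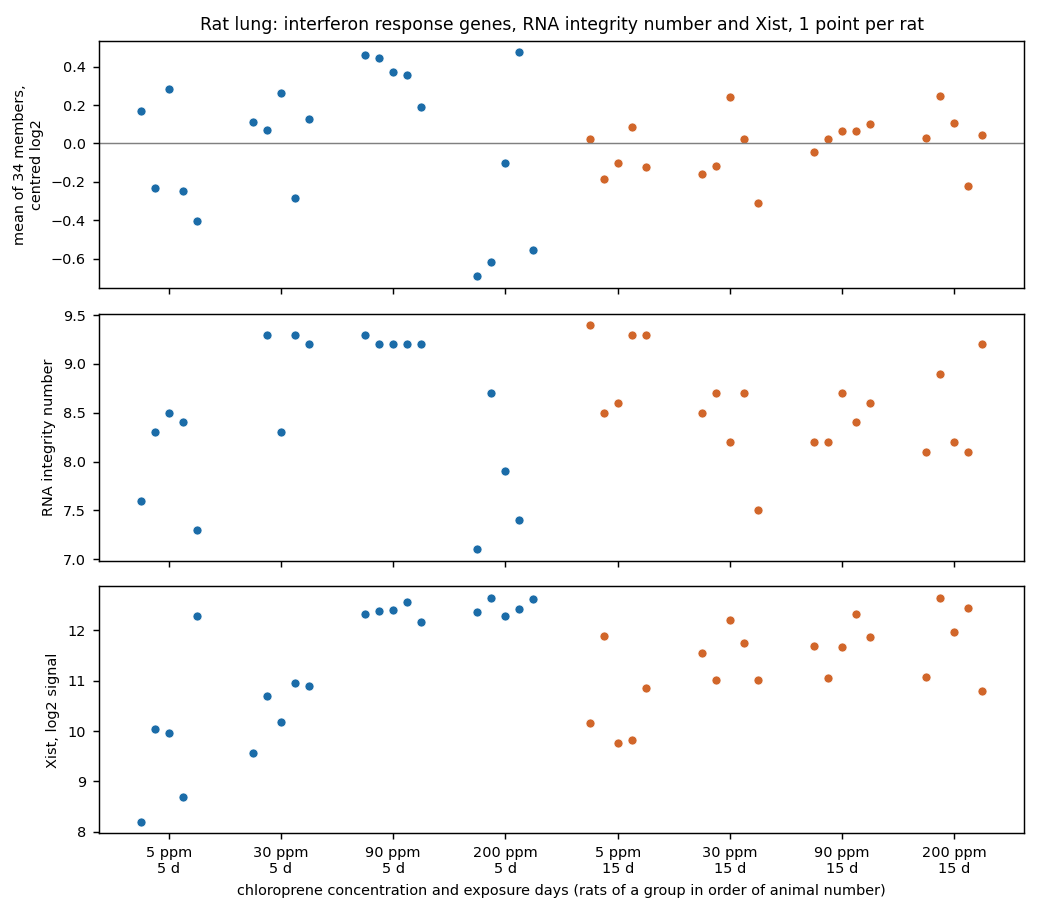
Mean of the 34 tested members in centred log2 units (top), RNA integrity number (middle, absent for 2 rats) and log2 signal of Xist (bottom) for each rat (points), by concentration and exposure days, blue after 5 and orange after 15 days. The 90 ppm rats after 5 days have member means of 0.19 to 0.46 and integrity numbers of 9.2 to 9.3, and rat 268 at 200 ppm stands at 0.48 above the rest of its group.

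Between 90 and 200 ppm after 5 days, a comparison added after the values were seen, no member and no other gene passed (0% called). The median difference, 90 minus 200 ppm, was 0.52 over the members and 0.03 over all genes. The smallest adjusted p among the members was 0.112 for Rsad2, with a difference of 1.10 ± 0.23. At 30 ppm no gene of the array (0%) was called against 5 ppm. The members' median there was 0.07, and 2 members were higher at an unadjusted p under 0.05 (2.07% of all genes). Ifit3 had the largest value, 0.83 ± 0.30 (adjusted p = 0.310). The comparisons at 30, 90 and 200 ppm share the 5 ppm rats, so they are not independent of each other.

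After 15 exposure days 1 rat member was called. Irf3, the factor that starts interferon production after virus sensing, fell at each concentration. It read 10.54, 10.14, 10.34, 10.24 and 10.58 at 5 ppm and 10.02, 10.00, 9.91, 9.98 and 9.97 at 30 ppm. At 90 ppm it read 10.01, 9.92, 10.02, 9.98 and 10.07, and at 200 ppm 10.01, 10.16, 9.93, 9.87 and 10.27. The 30 and 90 ppm rats were below every 5 ppm rat, which 2.51% and 2.19% of all genes were, and the 200 ppm rats overlapped with them. The changes were -0.39 (adjusted p = 0.0143) at 30 ppm, -0.37 (adjusted p = 0.0245) at 90 ppm and -0.32 (adjusted p = 0.0374) at 200 ppm. Of all genes 0.518%, 0.0363% and 0.318% fell and 1.14%, 0.272% and 0.5% rose. All 3 changes share the 5 ppm rats, and at each concentration the call was lost without rat 225 or rat 229. At 200 ppm it was also lost without any 1 of rats 227, 277, 280 or 281, and at 90 ppm without any 1 of rats 227, 257, 258, 259 or 260. With the RNA integrity number as covariate the call was lost at each concentration. It was also lost with the 3' to 5' difference of the Gapdh and beta-actin control probe sets as covariate. The median integrity number was 9.3 at 5 ppm and 8.5, 8.4 and 8.2 at 30, 90 and 200 ppm. The median 3' to 5' difference was 0.437 at 5 ppm and 0.262, 0.246 and 0.163 at the others. The part of RNA quality in these falls was not tested.

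Ifit2, Ifit3 and the GTPases gave no call after 15 days, though their errors were wide. The Ifit2 difference was -0.85 ± 0.42 at 30 ppm and -0.38 ± 0.42 at 90 ppm, and that of Gbp4 -0.46 ± 0.39 at 30 ppm. Over all members, the medians were 0.06, 0.11 and 0.12 at 30, 90 and 200 ppm. Non-overlapping higher values were seen for Ifi35 at 30 ppm (0.43, adjusted p = 0.115) and for Dhx58, Psmb8 and Psmb9 at 90 ppm, all without a call, where 2.92% and 1.93% of all genes were. At an unadjusted p under 0.05, 4, 2 and 4 members were higher (10.2%, 6.07% and 6.37% of all genes), and Irf3 alone was lower.

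The change from 5 to 200 ppm differed between 15 and 5 days for 3 of 34 members, which were relatively higher after 15 days. Of all genes 8.81% were higher and 2.62% lower, so the share of the members was near that of all genes. Ifi35 read 10.81, 10.43, 10.19, 10.35 and 9.93 at 5 ppm and 9.77, 9.83, 10.26, 10.33 and 9.66 at 200 ppm after 5 days. After 15 days it read 9.93, 10.30, 9.98, 10.21 and 9.84 at 5 ppm and 10.84, 10.35, 10.35, 10.13 and 10.75 at 200 ppm. So the 200 ppm rats were mostly below their reference at the first time and mostly above it at the second. The difference was 0.80 ± 0.22 for Ifi35 (adjusted p = 0.0350), 0.67 ± 0.19 for Dhx58 (adjusted p = 0.0363) and 0.64 ± 0.22 for Irf9 (adjusted p = 0.0494). The median difference was 0.40 over the members and 0.15 over all genes. The count was 0 without any 1 of rats 217, 219, 221, 225, 227, 229, 265, 266, 269, 277 or 282. It was 7 without rat 228, 267 or 279, 8 without rat 268 or 281 and 13 without rat 222.

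At 200 ppm itself, 15 against 5 days gave no call, with a lowest adjusted p of 0.050, where 0.0999% of all genes rose and 0.0272% fell. At an unadjusted p under 0.05, 15 members were higher (29.2% of all genes). Without rat 267 or 268 there were 8 rises, without rat 279 there were 11 and without rat 281 there were 15. At 5 ppm no gene of the array was called between the times, and no member was past an unadjusted p of 0.05.

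Mouse and rat were fitted apart and share 90 ppm after 5 days, though against 0 ppm in the mouse and 5 ppm in the rat. Gbp2, Parp9, Parp14 and Ifitm3 fell in the mouse and rose in the rat, 4 of the 12 and of the 13 called members. Several of the other called members were tested in only 1 of the species. Gbp2, Parp9, Parp14 and Ifitm3 were tested in both. Their changes were -0.69 and 0.87 for Gbp2, -0.32 and 0.60 for Parp9, -0.38 and 0.68 for Parp14 and -0.19 and 0.20 for Ifitm3. The Ifit3 values were 0.05 (mouse) and 1.40 (rat). Psmb8 was -0.42 and 0.12, and Psmb10 -0.42 and -0.00. The difference between species was not tested, since the arrays and the reference concentrations differ.

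The members without a test are accounted for as follows. In the mouse Isg15, Ifi44, Gbp4 and Gbp5 had no probe set with that symbol alone. Socs1, Mx1, Cxcl9 and Cxcl11 exceeded the filter signal on fewer than 5 arrays or on none. In the rat Oasl2, Xaf1, Gbp3, Gbp5, Gbp8, Irgm1 and Iigp1 had none, and Ifit1 and Cxcl11 did not reach 5 arrays. The signal of rat Ifit1 stayed between 5.94 and 6.98 on all arrays. So of the genes that fell in the mouse, Gbp3, Gbp8, Iigp1, Oasl2 and Xaf1 were not measured in the rat, and Ifit1 was below the filter there. Of the genes that rose in the rat, Gbp4 and Ifi44 were not measured in the mouse, and Mx1 was below the filter there.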

How the data were processed

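The data are log2 signal values per probe set of 45 Mouse430_2 and 40 Rat230_2 arrays, 1 per animal, as the authors deposited them. The summarization and normalization behind them are not given in the sources used here. Per the labels' protocols, right lungs were kept in RNAlater and RNA was extracted with Trizol and RNeasy. Mouse values lay between 3.474 and 15.34, rat values between 3.066 and 15.14.

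Probe sets with 1 gene symbol in the platform annotation were kept where at least 5 arrays exceeded the 40th percentile of all values (6.672 in the mouse, 6.651 in the rat). The probe set with the highest mean stood for its gene. Each species was fitted over all its groups with limma 3.58.1 in R 4.3.3 (group means, eBayes), with Benjamini-Hochberg adjustment over all genes and a two-sided threshold of 0.05. Standard errors had a median of 0.0991 (mouse) and 0.11 (rat), and 5 arrays a group limit the precision. The code was tested on simulated data.

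The members and the gene lists were chosen with earlier results of these data known. Any of the 43 members could be named whatever its result. Of the other pathway lists, up to 6 genes per comparison were named by smallest p past the threshold, and Ifng, Ifnar1, Ifngr1, Ciita, Cd74, B2m and Nlrc5 whatever their result (Ifng was not tested). Another gene of this rule is not reported here. The alternatives tried were other filters, a 1.5-fold minimum, the mean of probe sets, quantile normalization, limma's trend and robust settings, arrays of 1 time, RNA integrity as a covariate, other reference or left-out mice, and each animal left out. Added after the values were seen were a 3' to 5' covariate, centred arrays and the rat comparison of 90 with 200 ppm.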

Additional observations from a re-analysis of the deposited data

Results flagged for a closer look

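Of 269 combinations of a called member and a group of 5, 13 had an animal far from the other 4, and chance alone gives about 1 in 20. In the rats at 200 ppm for 5 days rat 268 stood high in Ifit2 (10.75) and Cxcl10 (7.32). In the rats at 5 ppm for 5 days rat 220 stood high in Gbp2 (10.72), Gbp4 (6.72) and Ifi44 (9.52). At 30 ppm for 5 days rat 239 stood apart in Ifi35 (10.72) and rat 237 in Rsad2 (9.20), and at 200 ppm for 15 days rat 281 in Dhx58 (7.52). In the mice at 90 ppm for 5 days mouse 166 stood high in Oasl2 (9.65), and so did its mean over all 35 tested members (0.0476 in centred log2 units). Mouse 103 stood apart at 0 ppm in Ifitm3 (13.97), mouse 137 at 2 ppm for 5 days in Parp9 (9.79), and at 0.3 ppm for 15 days mouse 129 in Ifit1 (9.37) and mouse 128 in Parp14 (8.77). Among the means over role groups, rat 228 at 5 ppm for 15 days stood apart for the immunoproteasome (0.119) and rat 245 at 30 ppm for 15 days for the transcription factors (-0.0623).

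The change from 5 to 200 ppm in the rat differed between 15 and 5 days by 0.67 in Dhx58, 0.80 in Ifi35 and 0.64 in Irf9, by limma's test of that difference. These are 3 of 34 members, a share near the 8.81% of all genes that were higher in that test. The Ifi35 change was -0.372 after 5 days and 0.427 after 15 days, on opposite sides of 0.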

How the results depend on the processing

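No paired analysis was possible because each replicate number belongs to 1 animal and no 2 groups share one. No change called in the main fit turned its direction in an alternative. Changes without a call there were not checked for this. Counts of called members that moved by over 1.5 times were as follows. For the 12 mouse falls at 90 ppm after 5 days, a 1.5-fold minimum left 4 and the integrity covariate 1, in a fit without 3 of the 5 controls. At 2 ppm 1 fell without the mice of conflicting duration. For the 7 mouse falls after 15 days, the counts were 2 (1.5-fold), 4 (without conflicting duration) and 2 (without lettered mice). For the 13 rat rises at 90 ppm, arrays of 1 time gave 7 and the integrity covariate 0, although the changes stayed near their size there (Gbp2 0.85 ± 0.28, Parp14 0.64 ± 0.21). Integrity numbers did not overlap between those 90 and 5 ppm rats, so the covariate cannot separate RNA quality from concentration. At 200 ppm after 5 days, the 3' to 5' covariate gave 2 rises and 7 falls, centring 2 rises and 1 fall, the 1.5-fold minimum 1 fall, arrays of 1 time 1 fall and the integrity covariate 0. The fall of Irf3 after 15 days became 0 at each concentration with the 1.5-fold minimum and with the integrity or 3' to 5' covariate, at 90 and 200 ppm with arrays of 1 time, and at 200 ppm with quantile normalization. The 3 rat members that differed between times became 0 with either covariate and 1 with centring. At 200 ppm, 15 against 5 days gave 4 rises with the 60th percentile filter, 2 with quantile normalization and 3 with trend and robust settings. The cause of these moves was not tested.

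With 1 animal left out, the mouse falls ranged from 7 to 14 after 5 days and from 3 to 7 after 15 days. The rat rises at 90 ppm ranged from 1 to 15, the falls at 200 ppm from 1 to 15, the time difference from 0 to 13 and the 200 ppm time comparison from 0 to 15. After 15 days the falls in the rat ranged from 0 to 1 at 30, 90 and 200 ppm, and the rises from 0 to 1 at 30 and 200 ppm. Gbp2 in the mouse after 5 days kept its call in all 13 alternatives and without any 1 of 10 mice. With 5 arrays a group, small changes lie within the error.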
